A study of Mus musculus with 2 samples.

Results

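The microRNA (miRNA) genes described here lie inside genes of lipid, coenzyme A and mitochondrial metabolism: Mir33 in Srebf2, Mir103-1 in Pank3, Mir103-2 in Pank2, Mir107 in Pank1 and Mir378a in Ppargc1b. They were selected by symbol, with earlier results of these data known, and make up 5 of the 1973 gene rows of the deposited tables. Mir378a was read through the row of Gm25301, a gene annotated opposite to it, by the reads on that row's antisense strand. The tissue was limb of B6NCrl mouse embryos at embryonic day 10.5, with both sexes mixed. There was 1 group of 2 biological replicates, for which the limbs of 69 embryos (replicate 1) and 51 embryos (replicate 2) were pooled. No genotype, treatment or second stage was compared, so the values describe the limb bud of this strain and its spread between 2 pools.

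An intronic miRNA is cut from the primary transcript of its host as a hairpin, either arm of which can become the mature miRNA. A miRNA finds its target mRNAs mainly through its seed, the bases 2 to 8 from the 5′ end. Srebf2 encodes the transcription factor that switches on cholesterol synthesis and uptake, and miR-33 represses the cholesterol exporter Abca1 in mouse liver and macrophages. The Pank genes encode pantothenate kinases, the enzymes of the first and rate-limiting step of coenzyme A synthesis, and miR-103 and miR-107 lower insulin sensitivity in mouse liver and fat. Ppargc1b encodes a coactivator of mitochondrial genes, and miR-378a acts on energy metabolism in mouse muscle and liver.

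The mature sequences show how far the genes can be told apart by reads. They are from RefSeq on GRCm38.p6, written 5′ to 3′ with the seed in capitals, and the 4 genes whose sequence is shown were all matched by symbol.
miR-33-5p: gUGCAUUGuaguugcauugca
miR-33-3p: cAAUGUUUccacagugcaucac
miR-103-1-5p: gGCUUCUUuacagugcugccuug
miR-103-2-5p: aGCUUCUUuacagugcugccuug
miR-107-5p: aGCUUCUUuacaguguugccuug
miR-103-3p (Mir103-1 and Mir103-2): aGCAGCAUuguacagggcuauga
miR-107-3p: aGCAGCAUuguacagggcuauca
The 3p arms of the 3 Pank-hosted genes share the seed GCAGCAU, and their 5p arms share GCUUCUU. Among 1738 mature entries of the sequence table each of these seeds occurred in these 3 genes and in no other. The seeds of miR-33-5p and miR-33-3p occurred in Mir33 alone.

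Both Mir103 genes encode the same 23-base 3p miRNA. miR-107-3p differs from it by 1 substitution, G22C (miR-103-3p base first, positions counted from the 5′ end). On the 5p arms, miR-103-1-5p and miR-103-2-5p differ by G1A, and miR-103-2-5p and miR-107-5p by C16U. The hairpins, with both mature arms in capitals, differ more in their flanks and loops than in their arms.
Mir103-1: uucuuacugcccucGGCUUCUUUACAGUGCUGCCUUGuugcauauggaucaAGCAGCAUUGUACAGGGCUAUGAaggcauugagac
Mir103-2: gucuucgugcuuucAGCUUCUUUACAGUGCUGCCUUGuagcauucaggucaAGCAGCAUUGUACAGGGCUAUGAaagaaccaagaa
Mir107: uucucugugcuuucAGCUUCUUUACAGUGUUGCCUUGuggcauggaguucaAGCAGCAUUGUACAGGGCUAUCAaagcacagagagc
Mir33: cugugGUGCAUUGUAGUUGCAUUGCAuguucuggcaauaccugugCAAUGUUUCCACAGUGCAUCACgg
Mir103-1 and Mir103-2 were identical at 69 of 86 aligned columns (80.2%), Mir103-1 and Mir107 at 70 of 87 (80.5%), and Mir103-2 and Mir107 at 73 of 87 (83.9%). RNAfold predicted a minimum free energy of -41.2 kcal/mol for Mir107, -35.8 for Mir103-1, -31.8 for Mir103-2 and -32.2 for the shorter Mir33 hairpin.

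The deposited tables have the layout of a count of uniquely placed reads, in which a read that matches several loci counts at none. An exact search of each arm, on both strands, among 1005 mouse hairpins of the RefSeq table showed which reads this touches. A read of miR-103-3p from base 1 had to be 25 bases long before it occurred in 1 hairpin only. The full 23-base miR-103-3p is thus shared by both genes, and its first 21 bases also by Mir107. A read of miR-107-3p from base 1 was found in no other hairpin from a length of 22 bases. Reads of the 5p arms from base 1 occurred in 1 hairpin only from 16 bases (Mir103-2 and Mir107) or from 15 bases, the shortest length searched (Mir103-1), as did both arms of miR-33 at that length.

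Over whole hairpins, 57 of 65 windows of 22 bases in Mir103-1 were found in no other hairpin, 55 of 65 in Mir103-2, 61 of 66 in Mir107 and 48 of 48 in Mir33. The shared windows of both Mir103 genes began at bases 16 to 17 and at bases 49 to 54 of the hairpin, and those of Mir103-2 also at bases 7 to 8, where it matched Mir107. In Mir107 they began at bases 7 to 8 and 49 to 51. The search covers annotated hairpins and not the whole genome, and the number of mismatches allowed in alignment is not given in the sources used here.

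**Figure D1:**
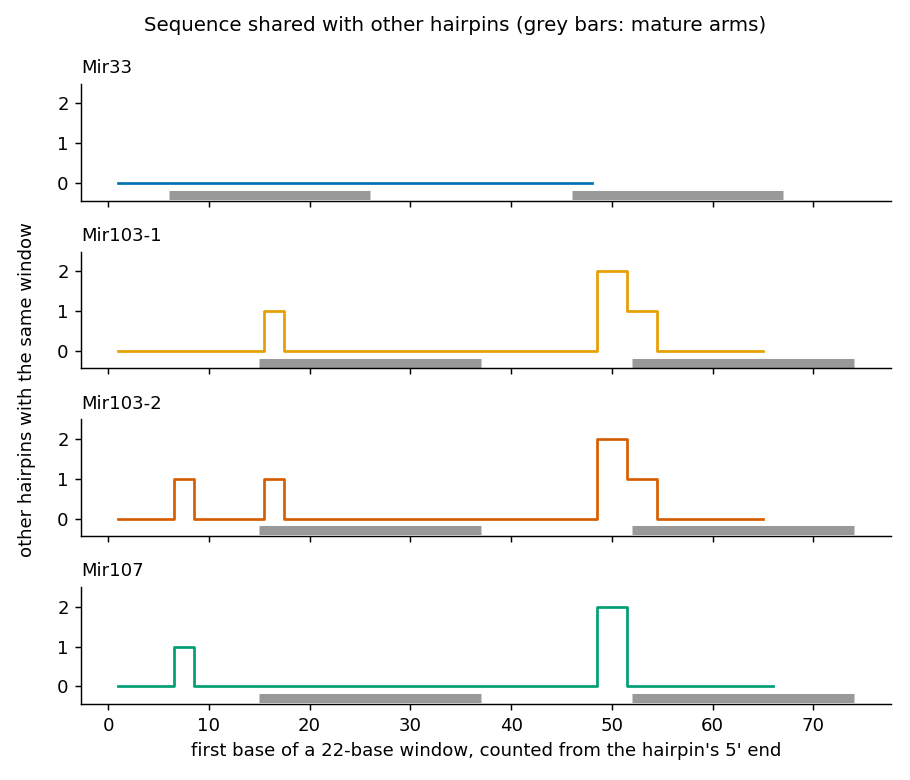
Number of other mouse hairpins (vertical axis) that hold the same 22-base window, by the window's first base counted from the 5′ end of the hairpin (horizontal axis), with grey bars at the mature arms. Windows that begin at bases 49 to 51 were shared by all 3 Pank-hosted genes, those at 52 to 54 by both Mir103 genes, and no window of Mir33 was shared.

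Mir33 lies on chromosome 15 (82198122 to 82198190, plus strand, mm10) in intron 16 of 18 of Srebf2, 335 bases after the upstream exon. The Pank genes are placed alike: Mir103-1 (chromosome 11, 35782396 to 35782481, plus strand), Mir103-2 (chromosome 2, 131288052 to 131288137, plus strand) and Mir107 (chromosome 19, 34820687 to 34820773, minus strand) each lie in intron 5 of 6 of their host, 688, 454 and 326 bases after the upstream exon. Mir378a (chromosome 18, 61397835 to 61397900, minus strand) lies in intron 1 of 11 of Ppargc1b, an intron of 76981 bases, 2389 bases after the first exon. Intron numbers are those of 1 GENCODE M21 transcript per host, the one tagged as principal in the annotation. All 5 hairpins were intronic in every annotated transcript of the host that spans them and have the strand of the host. All 1894 rows that could be matched to the annotation were miRNA genes, so the host mRNAs were not measured and the levels below cannot be set against them.

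The libraries were alike in depth within genes, with 3581672 and 3576482 sense counts in replicates 1 and 2, and CPM below are counts per 1000000 of these. Total reads were less alike, at 10064833 and 7218612, of which 32.3% and 18.6% were unmapped. Multimapping reads were 32.3% and 31.2% of the mapped reads. A count of 0 allows up to 0.838 and 0.839 CPM (3 counts). The limb label was checked by the 5 Mir10 and Mir196 genes of the Hox clusters, which together had 181850 and 166540 CPM. The mean levels of these 5 ran from 39.5 to 69833 CPM. The liver gene Mir122 had 24.8 and 5.59 CPM. Of other cell types checked, 4 genes of mesenchyme had 18107 and 22830 CPM and 1 of endothelium 26707 and 23683 CPM. Another 4 of epithelium had 11082 and 9683 CPM, and 2 of muscle 27.9 and 104.9 CPM. Of the muscle genes, Mir133b had only 4 and 25 counts. The 2 erythroid genes had 451 and 254 CPM, and the 2 leukocyte genes 729 and 610 CPM. The 4 neural genes had 79.0 and 123 CPM, all of it from Mir137. Each pool holds all cell types of the limb bud, so fewer cells of a type and less miRNA per cell cannot be told apart.

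All 5 genes passed the detection limit of 10 counts in each library on the strand used, while 17.6% of all rows passed it on the sense strand and 0.71% on the antisense strand. By uniquely placed reads, their levels spanned more than 2 orders of magnitude. In descending order these were Mir378a, Mir107, Mir103-2, Mir33 and Mir103-1, and in neither library did any of them exchange places. The values of neighbouring genes in this order did not overlap between libraries, and within each library the counting intervals did not overlap either. All intervals are 95%, exact binomial, and cover counting error only. With 2 libraries of 1 group a two-sided exact sign-flip test cannot go below p = 0.5, and the levels carry no p-value.

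**Figure D2:**
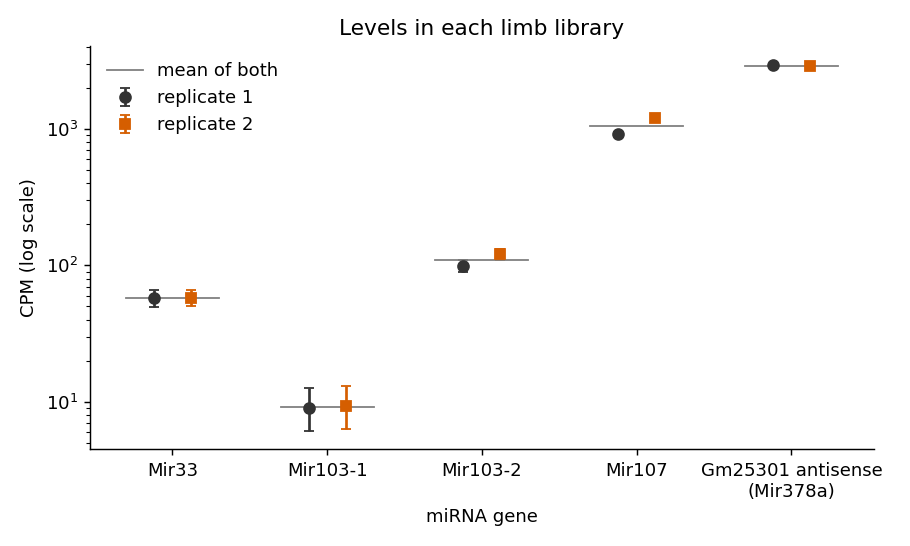
CPM on a log scale (vertical axis) of the 5 miRNA genes (horizontal axis) in replicate 1 (circles) and replicate 2 (squares), with exact binomial 95% intervals and a line at the mean. The genes run from 9.08 CPM (Mir103-1) to 2919 CPM (antisense reads of Gm25301), and the 2 libraries lie close together at each gene.

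Mir33, the gene within the cholesterol regulator Srebf2, had 206 counts in replicate 1 and 207 in replicate 2. These counts were 57.5 CPM (49.9 to 65.9) and 57.9 CPM (50.3 to 66.3), a mean of 57.7 ± 0.257 CPM (SD, n = 2). The libraries differed by less than counting error, with a log2 ratio of replicate 2 to replicate 1 of 0.01 (-0.28 to 0.29). Mir33 ranked 217 of 1973 by mean CPM, and 223 and 210 in the single libraries. Ranks here use the antisense level for the row of Gm25301 and the sense level for every other row.

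Mir107, the gene within Pank1, was the most abundant of the Pank-hosted genes by uniquely placed reads. It had 3309 counts in replicate 1 and 4296 in replicate 2, or 924 CPM (893 to 956) and 1201 CPM (1166 to 1238), and a mean of 1063 ± 196 CPM (SD, n = 2). Replicate 2 was higher by a log2 ratio of 0.38 (0.31 to 0.44), more than counting error gives. Its rank was 91, with 104 and 81 in the single libraries.

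Mir103-2, within Pank2, had 355 and 432 counts. They amount to 99.1 CPM (89.1 to 110.0) in replicate 1 and 121 CPM (109.7 to 133) in replicate 2, a mean of 110.0 ± 15.3 CPM (SD, n = 2) and rank 186. Its log2 ratio of 0.28 (0.08 to 0.49) had the direction of that of Mir107. Mir103-1, within Pank3, had only 32 and 33 counts, or 8.93 CPM (6.11 to 12.6) and 9.23 CPM (6.35 to 13.0), a mean of 9.08 ± 0.207 CPM (SD, n = 2) and rank 306. The interval of its log2 ratio, 0.05 (-0.70 to 0.79), was the widest of the 5, since it rests on the fewest reads.

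Within a library, the 2 genes of identical 3p miRNA had very unequal counts. Mir103-2 was 11.1-fold above Mir103-1 in replicate 1 (log2 ratio 3.43, 2.95 to 4.04) and 13.1-fold above it in replicate 2 (3.67, 3.20 to 4.27). Mir107 exceeded both Mir103 genes together by 8.55-fold in replicate 1 (log2 ratio 3.09, 2.94 to 3.25) and 9.24-fold in replicate 2 (3.20, 3.07 to 3.35). The mean log2 ratios were 3.55 ± 0.17 and 3.15 ± 0.08 (SD, n = 2), so both orders were larger than the spread between libraries. They are ratios of uniquely placed reads. Full-length miR-103-3p, identical at both genes as printed above, could be assigned to neither, and the share of the multimapping reads that came from it was not measured. The order of Mir107 and Mir103, and that of the 2 Mir103 genes, therefore need not be that of the mature miRNAs. The arms were not counted apart, so whether the 32 to 432 reads at the Mir103 genes came from the 5p arm or from the 3p arm is not known.

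The 3 Pank-hosted genes together had 1032 CPM in replicate 1 and 1331 CPM in replicate 2, a mean of 1182 ± 212 CPM (SD, n = 2), of which Mir107 made up 89.9%. This sum leaves out the reads shared by the Mir103 genes and those they share with Mir107, such as the first 21 bases of miR-107-3p. Mir33 lay between the 2 Mir103 genes: Mir103-2 was 1.72-fold above it in replicate 1 (log2 ratio 0.78, 0.53 to 1.04) and 2.09-fold in replicate 2 (1.06, 0.82 to 1.31). Mir33 was in turn 6.44-fold and 6.27-fold above Mir103-1, with log2 ratios of 2.65 (2.14 to 3.27) and 2.61 (2.11 to 3.23). Mir107 was 16.1-fold and 20.8-fold above Mir33.

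Uniquely placed reads were most abundant in the set at the Mir378a locus. The row of Gm25301 (chromosome 18, 61397813 to 61397925, plus strand) covers all 66 bases of the Mir378a hairpin on the other strand, and the tables used here hold no row of Mir378a itself. The row had 10507 antisense reads in replicate 1 and 10387 in replicate 2, and 0 sense reads in both. These are 2934 CPM (2878 to 2990) and 2904 CPM (2849 to 2961), a mean of 2919 ± 20.7 CPM (SD, n = 2). Against the sense levels of the other rows this would place the locus at rank 53. That order leaves out the antisense reads opposite Mir409, which had a higher level (8359 ± 3985 CPM). The log2 ratio of the Mir378a locus between the libraries, -0.01 (-0.05 to 0.02), had an interval that included 0. Mir378a reads exceeded those of Mir107 by 3.18-fold in replicate 1 (log2 ratio 1.67, 1.61 to 1.72) and 2.42-fold in replicate 2 (1.27, 1.22 to 1.33). A sense count of this row alone would have listed the locus at 0.

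The strand of the reads was unambiguous at every locus. At Gm25301, 100% of reads were antisense in both libraries, with a lower limit of 99.96% in each. At the other 4 genes 0 antisense reads were found, which allows an antisense share of up to 1.77% at Mir33, 10.9% at Mir103-1, 1.03% at Mir103-2 and 0.111% at Mir107 in replicate 1 (exact binomial upper limits). Over all rows antisense reads made up 2.30% and 1.70% of the reads in genes.

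Paralogs of Mir378a at other loci had few reads. Mir378d, on chromosome 10, had 22 and 25 counts (6.57 ± 0.599 CPM, SD, n = 2), Mir378c on chromosome 14 had 8 and 10 counts, and Mir378b on chromosome 11 had 3 and 1. Of the 4 loci, Mir378d and the Mir378a locus passed the detection limit. A read that matched Mir378a and a paralog equally would have been counted at neither, and how many did was not measured.

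As absolute log2 ratios around 0, the differences between replicates at these genes ran from near 0 to about the typical size among other miRNA genes. Across the 250 genes with at least 100 sense counts on average the median log2 ratio was -0.27 with an SD of 0.66, and 27 genes (10.8%) differed by more than 2-fold, against 0 of the 5 genes here. Of the 250 genes, 3 had a smaller absolute log2 ratio than Mir33, 8 a smaller one than the Mir378a locus, 88 than Mir103-2 and 124 than Mir107. The ratios were higher than 0 for 33.2% of the 250 genes, and for all but the Mir378a locus among the 5. All 5 lay above the median of the 250 genes, by 0.26 (Mir378a), 0.28 (Mir33), 0.32 (Mir103-1), 0.56 (Mir103-2) and 0.65 (Mir107). The quartiles of the 250 genes were -0.58 and 0.12, and Mir103-2 and Mir107 lay above the upper one. The ratios themselves depend on the scaling. The TMM factors of edgeR raise every log2 ratio by 0.29. They take Mir33 to 0.30, the Mir378a locus from -0.01 to 0.27, Mir103-1 to 0.33, Mir103-2 to 0.57 and Mir107 to 0.67. The near equality of Mir33 and of Mir378a between the pools thus holds for scaling by the total of sense counts; their distance from the median of the 250 genes cannot change with a scaling that shifts all ratios alike.

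**Figure D3:**
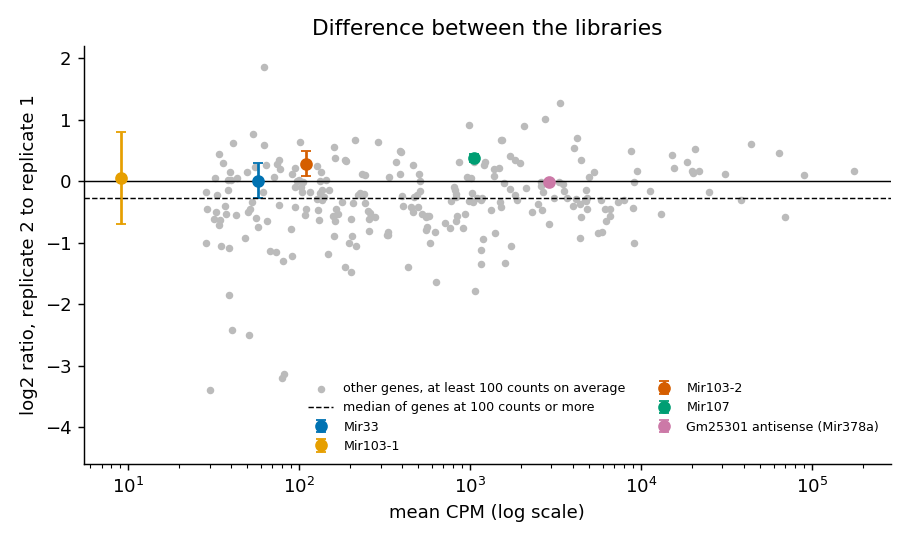
Log2 ratio of replicate 2 to replicate 1 (vertical axis) against mean CPM on a log scale (horizontal axis), with the 5 genes in colour with exact binomial 95% intervals and other genes in grey. The 5 genes lie between -0.01 and 0.38, above the dashed median of -0.27.

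Set in the order of all rows by mean CPM, the genes closest in level were Mir3072 above Mir33 (58.0 ± 20.7 CPM) and Mir128-1, an intronic gene of R3hdm1, below it (55.7 ± 15.9 CPM; SD, n = 2 here and for the neighbours that follow). Mir107 stood between Mir302b, an early embryonic gene, at 1066 ± 830 CPM, and Mir708, in an intron of Tenm4, at 1061 ± 165 CPM. Mir103-2 stood between Mir877 in Abcf1 (116 ± 10.2 CPM) and Mir325 (109.9 ± 23.8 CPM), and Mir103-1 between Mir3095 in Lpar1 (9.78 ± 2.36 CPM) and the heart muscle gene Mir208a in Myh6 (9.08 ± 3.35 CPM). The antisense level at Gm25301 fell between those of Mir125a (3110 ± 413 CPM) and Mir382 (2919 ± 967 CPM). The likeness here is the difference of log2 mean CPM over 2 libraries, which was at most 0.11. The library values of each gene and its neighbours overlapped in all 10 pairs, so none of these adjacent ranks was separated by the spread between libraries. Mir302b and Mir107 had opposite directions, with 5918 against 1712 counts for Mir302b and 3309 against 4296 for Mir107.

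Mir33, Mir107 and both Mir103 genes belong to the 654 rows that lie in introns of a protein-coding gene on the same strand. Of these rows 131 were detected, with a median of 90.1 CPM among those detected (quartiles 13.7 and 992 CPM). Mir103-2 (110.0 CPM) was nearest to that median, with 69 of the 131 genes below it. Mir33 had 60 of the 131 below it, Mir103-1 24 and Mir107 100. The level of the Mir378a locus exceeded 112 of the 131. The median of the 5 genes, 110.0 CPM, can be set beside 136 CPM for all 348 detected rows. By uniquely placed reads, the set thus spread over the range of detected intronic miRNA genes from its lower part to its upper part. Of the 5 genes, Mir103-1 alone lay below the lower quartile. The levels of Mir103-1 and Mir103-2 leave out full-length reads of the mature miRNA that both encode. Their places among the 131 genes could therefore be higher, and the spread of the set smaller, if such reads were counted. Detected rows in exons of protein-coding hosts (38 of 200 rows) had a median of 88.2 CPM. In noncoding hosts the median was 188 CPM for exons (42 of 100 rows) and 569 CPM for introns (20 of 79). Detected rows with no host on their strand (117 of 861) had a median of 235 CPM.

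**Figure D4:**
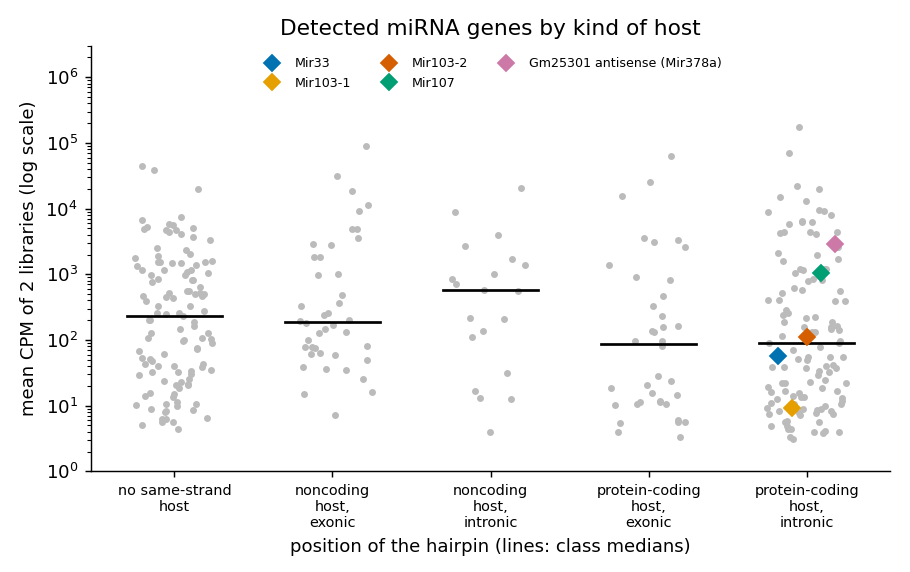
Mean CPM of 2 libraries on a log scale (vertical axis) of detected miRNA genes, grouped by the position of the hairpin (horizontal axis), with black lines at the class medians. The 5 genes are diamonds among the intronic genes of protein-coding hosts, whose median is 90.1 CPM, and the Mir378a locus is drawn there by its antisense level.

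The motif AGCAGC at the 5′ end joins the Pank-hosted genes to the Mir15 and Mir16 genes, whose miRNAs act on cell cycle genes. Of 1738 mature entries in the sequence table, 15 (0.863%) held it within bases 1 to 8, searched on the given strand. It began at base 1 in the 3 Pank-hosted genes and at base 2 in the other 12, so the seeds are shifted by 1 base. The following sequences, with the motif in capitals, show this offset.
miR-103-3p: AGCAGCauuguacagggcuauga
miR-107-3p: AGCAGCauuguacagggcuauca
miR-15a-5p: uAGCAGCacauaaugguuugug
miR-16-5p: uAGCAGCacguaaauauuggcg
miR-322-5p: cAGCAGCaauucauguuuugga
miR-503-5p: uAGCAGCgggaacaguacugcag
With bases 2 to 8 as the seed, the 3 Pank-hosted genes have GCAGCAU, 11 genes have AGCAGCA and Mir503 has AGCAGCG.

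Of 14 genes with this motif that had a row, 10 were detected. Their counts were dominated by Mir322, of a cluster on the X chromosome, at 44410 ± 12882 CPM, followed by Mir15a at 2684 ± 233, Mir16-1 at 1842 ± 305 and Mir503 at 1392 ± 139 CPM (SD, n = 2). Mir107 was the sixth of the group, below Mir15b (1174 ± 157 CPM) and above Mir195a (394 ± 90.7 CPM). In replicate 1 Mir15b (1285 CPM) exceeded Mir107 (924 CPM), whereas in replicate 2 it had 1062 CPM to the 1201 CPM of Mir107, so that order was not settled. Mir103-2 and Mir103-1 were the last of the detected genes, after Mir16-2 (390.3 ± 23.7 CPM). The 3 Pank-hosted genes made up 2.34% of the counts of the group in replicate 1 and 2.12% in replicate 2. Without Mir322, a choice made after the values were seen, they made up 11.7% and 14.3%. Mir16-1 and Mir16-2 also encode the same mature miRNA, so their counts, like those of Mir103, leave out shared reads.

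**Figure D5:**
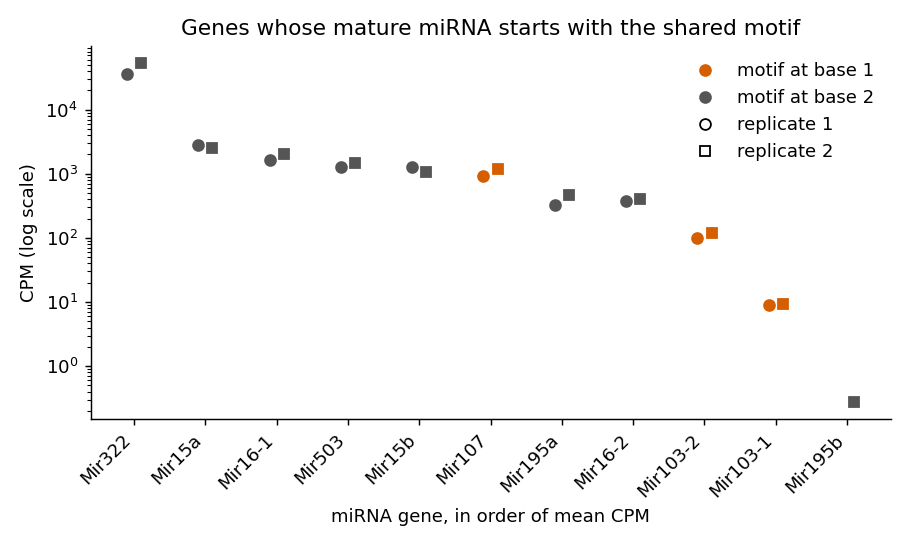
CPM on a log scale (vertical axis) of the genes with the motif AGCAGC near the 5′ end of the mature miRNA (horizontal axis, in order of mean CPM) in replicate 1 (circles) and replicate 2 (squares). The 3 genes with the motif at base 1 (orange) are Mir107, in the middle of the order, and Mir103-2 and Mir103-1, the last of the detected genes. Genes at 0 in a library are not drawn there.

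Other miRNA genes linked to cholesterol, lipid or glucose metabolism were mostly present at this stage. Of 20 such genes beside the 5 described, 19 were detected, with a median of 87.7 CPM over the 20, against 17.6% detected and a median of 0 over all rows. The list consists of well-studied genes and was not drawn evenly from the table. Mir106b, an intronic gene of Mcm7 that represses Abca1 and cell cycle inhibitors, led it at 9178 ± 59.5 CPM, followed by Mir143 at 4993 ± 187 and Mir27b, which acts on lipid genes in liver, at 1379 ± 52.6 CPM (SD, n = 2). The liver gene Mir122 had 89 counts in replicate 1 and 20 in replicate 2. Mir802, which impairs glucose handling in mouse liver, had no count in either library. Mir33 ranked below 11 of these 20 genes and above 9.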

How the data were processed

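The deposited tables, 1 per library, hold raw counts per gene row in 3 columns (both strands, sense, antisense). The authors aligned reads to mm10 and counted them over GENCODE M4, per the deposited readme texts. Which aligner, counter and trimming were used is not given in the sources used here. The 4 rows of reads given to no gene were left out of library sizes. Nothing says that the authors normalized the deposited counts. From them CPM over sense counts, exact binomial 95% intervals and log2 ratios with a prior count of 1 were computed. Symbols and positions came from GENCODE M21 on GRCm38 (the build of mm10), with 79 row identifiers unmatched, and sequences from RefSeq. The 5 genes and all lists were chosen with earlier results of these data known. Genes named are the 5, their neighbours by mean CPM and up to 4 most abundant genes of each list; others named (Mir15b, Mir16-2, Mir195a, Mir122, Mir802, Mir378b to Mir378d, and those read by antisense reads) were chosen after their values were seen. Computations were done in Python 3.11.15 (pandas 2.3.3, scipy 1.17.1), with ViennaRNA 2.7.2 for folding. In R 4.3.3, edgeR 4.0.16 and DESeq2 1.42.0 gave the scaling factors. The log2 ratios between libraries, their intervals and the scaling factors were tested on counts simulated with counting error only. Alternatives were other scalings, the mapped reads as denominator, both strands together, prior counts of 5, detection limits of 5 and 20, and leaving out a library.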

Additional observations from a re-analysis of the deposited data

Results flagged for a closer look

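Mir497 of the AGCAGC group had no row of its own among those analysed here, and reads appeared on a strand that the comparisons above do not use. The row of Mir497b, which lies opposite, had 1577 antisense reads in replicate 1 and 2009 in replicate 2, a mean of 501 ± 85.9 CPM (SD, n = 2), against 2 and 3 sense reads. This level would place Mir497 between Mir107 and Mir195a in that group.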

How the results depend on the processing

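Of 103 values recomputed under alternatives, 84 were classed as the same. Another 19 moved by more than their spread or counting interval, and 0 reversed a direction beyond counting error. Part of the 84 was fixed in advance. All 12 values from both strands stayed, since the other strand of the 5 genes held 0 reads. Leaving out 1 of 2 libraries always moves a mean level or ratio by less than its SD. Numbers of detected genes have no spread to compare, and over all rows 348 became 395 or 315. With all mapped reads as denominator the levels were 32.7 (Mir33), 5.16 (Mir103-1), 62.8 (Mir103-2), 608 (Mir107) and 1655 CPM (Mir378a), by construction of the larger total. TMM and DESeq2 factors took Mir33 to 58.01 and 57.98 CPM. For the log2 ratio between libraries, TMM gave 0.30 for Mir33, and TMM, DESeq2 factors and mapped reads gave 0.57, 0.56 and 0.50 for Mir103-2, 0.67, 0.65 and 0.59 for Mir107, and 0.27, 0.26 and 0.20 for Mir378a. These scalings shift all genes alike, by 0.29, 0.28 and 0.21. A prior count of 5 changed the log2 ratio of Mir33 to Mir103-1 from 2.63 to 2.496, since Mir103-1 has few counts. With 1 library left out, the rank of the Mir378a locus was 53 or 54. Detection limits of 5 and 20 counts kept all 5 genes, and no alternative changed the order of the 5. Both outcomes were fixed in advance. Each of the 5 had at least 32 counts in each library. Their order was the same in both libraries, and each scaling changes all genes of a library by 1 factor. No paired analysis was possible because there is 1 group. Depth limits Mir103-1 most, and shared sequence limits both Mir103 genes at any depth. It also limits Mir107 for shorter reads, since the first 21 bases of miR-107-3p occur in both Mir103 genes.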

Other observations

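The Mir378a locus was not the only one whose reads were found on the antisense strand of a row. Of the 14 rows with at least 10 antisense reads in both libraries, 10 had under 10 sense reads in each library, and all 10 lie opposite an annotated miRNA gene that has no row of its own among those analysed here. They held 99.2% of the antisense reads in genes in replicate 1 and 99.5% in replicate 2. By antisense level the Mir378a locus (2919 ± 20.7 CPM, SD, n = 2) was second to the row of Gm24321 opposite the imprinted gene Mir409 (8359 ± 3985 CPM). It was followed by the rows of Gm25927 opposite Mirlet7e (2268 ± 325 CPM), Gm24083 opposite Mir191 (1839 ± 289 CPM) and Gm25252 opposite Mir376a (1529 ± 142 CPM). A sense count alone lists each of these Gm rows at 0.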
